A study of Homo sapiens with 4 samples.

Results

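The genes described here are the transcription factor circuit around ATF4 and CHOP, chosen by name as ATF4, its basic leucine zipper (bZIP) partners and its feedback regulators. There are 9 of them among 58736 listed features: ATF4, ATF3, ATF5, DDIT3 (which encodes CHOP), CEBPB, CEBPG, CEBPD, TRIB3 and NUPR1. They were picked with the difference between the groups of these libraries already known, so that difference is given for them as a description. RNA was sequenced from the HEK293A cell line, derived from human embryonic kidney epithelium. The study concerned gene regulation by hairpin DNA probes that guide FEN1, a nuclease that cuts DNA flaps during replication. Cells transfected with the NT1_hp2 probe gave 2 libraries (replicates 2 and 3), and a negative control gave 2 (replicates 1 and 3). Per the labels' protocols, wells of both groups received 1 µg of FEN1 plasmid and 500 pmol of DNA probes 48 h later, so the control carries the FEN1 plasmid too, and RNA was taken after 72 h. What NT1_hp2 targets, and which probe the controls received, is not stated in the labels. Nothing in the labels says that replicates were separate cultures, so errors and p-values cover the spread among these libraries only, and that spread may be technical.

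ATF4 is the effector of the integrated stress response. When kinases phosphorylate the translation factor eIF2, most protein synthesis slows while ATF4 mRNA is translated more, because of short reading frames ahead of its coding sequence, so ATF4 protein can change with no change of its mRNA. ATF4 binds DNA as a dimer with other bZIP proteins, many of the C/EBP family, at composite C/EBP-ATF response elements (CARE) of genes for amino acid supply and of its own regulators, among them DDIT3, ATF3 and TRIB3. Only mRNA was measured here, so nothing is known of the proteins.

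The libraries held 12506203 to 14908687 reads assigned to genes, recovered from the deposited values. The pair of NT1_hp2 libraries and the pair of control libraries differed by more than sampling noise, with a chi-square per degree of freedom of 2.69 and 5.68, against 13.2 to 28.2 between the groups. Mitochondrial transcripts took 4.29% and 4.33% of reads in NT1_hp2 and 5.92% and 6.06% in the control, and their part in the results was not tested. Among markers for these cells, the keratin genes KRT8 and KRT18 were abundant but lower in both NT1_hp2 libraries, at 84.2 and 86.6 FPKM for KRT8 in NT1_hp2 against 112 and 99.0 FPKM in the control, and at 54.4 and 55.4 FPKM for KRT18 in NT1_hp2 against 77.7 and 68.8 FPKM in the control. CDH2 lay between 14.6 and 15.8 FPKM, and LHX1 was low, between 1.73 and 2.18 FPKM. The kidney factor PAX2 was nearly absent, at no more than 0.542 FPKM. The leukocyte gene PTPRC, the T cell gene CD3E, the globin gene HBB and the insulin gene INS were listed at 0 in all of them, and CD68, PECAM1, VWF, ALB, APOA1 and MYH7, markers of macrophages, endothelium, liver and heart muscle, lay between 0 and 0.298 FPKM.

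The promoter table of RefSeq (GRCh38.p14) held 16 windows for 7 of the 9 genes, and CEBPD and NUPR1 had none. Shown here are the 250 bases ahead of 1 annotated start of ATF4 and of the 3 genes with higher mRNA whose windows held a match relevant to bZIP factors, read 5' to 3' on the strand of the gene. Capitals mark the matches to the motifs searched. The start that the cells used was not measured.
ATF4, chr22:39520309-39520558, plus strand: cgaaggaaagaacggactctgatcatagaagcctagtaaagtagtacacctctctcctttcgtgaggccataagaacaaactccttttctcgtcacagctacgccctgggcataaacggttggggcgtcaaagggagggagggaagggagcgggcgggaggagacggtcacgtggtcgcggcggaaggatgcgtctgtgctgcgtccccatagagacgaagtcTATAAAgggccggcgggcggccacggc
ATF3, chr1:212565157-212565406, plus strand: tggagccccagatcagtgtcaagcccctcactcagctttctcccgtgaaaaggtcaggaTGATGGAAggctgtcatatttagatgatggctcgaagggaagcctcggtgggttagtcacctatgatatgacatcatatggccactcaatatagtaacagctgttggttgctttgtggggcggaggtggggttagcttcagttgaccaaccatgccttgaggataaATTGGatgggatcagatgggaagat
DDIT3, chr12:57520515-57520764, minus strand: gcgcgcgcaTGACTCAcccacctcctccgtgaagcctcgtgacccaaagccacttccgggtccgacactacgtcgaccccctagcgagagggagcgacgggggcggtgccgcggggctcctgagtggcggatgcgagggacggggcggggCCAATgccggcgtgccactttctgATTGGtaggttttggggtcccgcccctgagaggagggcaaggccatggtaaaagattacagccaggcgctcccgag
CEBPG, chr19:33373863-33374112, plus strand: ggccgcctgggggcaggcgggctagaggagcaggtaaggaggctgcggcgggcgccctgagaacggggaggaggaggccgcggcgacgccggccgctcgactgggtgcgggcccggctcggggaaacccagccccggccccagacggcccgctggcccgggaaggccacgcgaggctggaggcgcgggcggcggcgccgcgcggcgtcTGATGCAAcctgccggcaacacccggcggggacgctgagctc

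The CARE core, searched as TGATGNAA on both strands, was found in windows of 2 of the 7 genes, ATF3 and CEBPG, and in those of 4.46% of all 27305 genes in the table. The match in ATF3 began 191 bases before the start, and the match in CEBPG began 42 bases before it. ATF3 had windows at 2 starts only, while 11 transcripts are annotated for it. Any start of ATF3 outside those windows was not searched, for this motif or the others. The AP-1 motif TGANTCA was found for ATF5 and DDIT3 and for 9.37% of all genes, and in DDIT3 it began 241 bases before the start shown. The CCAAT box was found for ATF3, DDIT3, CEBPB and CEBPG and for 39.7% of all genes, and DDIT3 held it in both orientations, 100 and 76 bases before the start. ATF4 held a TATA box (TATAAA, in 14.0% of all genes) 27 bases before its start. CEBPB held one 29 bases before a start, and ATF3 one 230 bases before its other start. The cyclic AMP response element TGACGTCA, the C/EBP palindrome TTGCGCAA and the full endoplasmic reticulum stress element, which contains a CCAAT box, matched in 0 of the 7 genes, against 2.25%, 0.172% and 0.0916% of all genes. The search counted exact matches only. On each strand, the DDIT3 window shown holds a copy of the stress element that differs from the searched pattern by a single letter. The count of 0 therefore does not show that DDIT3 lacks such an element. TRIB3 matched none of the motifs in its 3 windows. Those windows overlap for most of their length, beginning at 381045, 381056 and 381093 on chromosome 20. The annotated gene begins at 362835, and any TRIB3 start outside the windows was not searched. A match is a description of the letters and not of binding, and these windows are short.

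ATF4 (ENSG00000128272, chromosome 22, 39519695 to 39522685, GRCh38) was the most abundant of the 9 genes in all 4 libraries. Its level was 147 and 144 FPKM (reads scaled to exon length and library size) in the NT1_hp2 libraries, against 185 and 157 FPKM in the control. Both NT1_hp2 libraries lay below both controls, with pairwise ratios of 0.780 to 0.931. The difference of the means was −0.23 (SE 0.10) on the log2(FPKM + 1) scale, and 10357 reads in NT1_hp2 and 11674 in the control stood behind it. In these whole-culture samples, a change in the share of cells with a transcript and a change in its amount per cell cannot be told apart.

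The mRNAs of 4 circuit genes were at least 1.84-fold higher in each NT1_hp2 library than in each control library. ATF3 encodes a stress-induced bZIP factor of the ATF family that is a target of ATF4. It stood at 70.7 and 63.9 FPKM in NT1_hp2, against 24.6 and 25.8 FPKM in the control. The groups were far apart compared with the spread within them, and every pairing of an NT1_hp2 with a control library gave a ratio of 2.48 to 2.87, for a log2 difference of 1.38 (SE 0.078). DDIT3 encodes CHOP, a C/EBP family member that dimerises with other C/EBP proteins and with ATF4 and is best known for promoting cell death in prolonged stress. Its values were 81.2 and 81.8 FPKM in NT1_hp2, against 36.6 and 34.5 FPKM in the control, with pairwise ratios of 2.22 to 2.37 and a log2 difference of 1.18 (SE 0.067). Replicates of DDIT3 differed by at most 1.06-fold within a group.

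TRIB3 encodes a pseudokinase of the Tribbles family that binds ATF4 and restrains it, and is itself induced by ATF4 and CHOP. It was measured at 37.5 and 39.3 FPKM in NT1_hp2, against 20.3 and 16.1 FPKM in the control. The 2 control libraries differed by 1.26-fold, the widest gap within a group among the genes above 1 FPKM, so the pairwise ratios ran from 1.84 to 2.44. The log2 difference was 1.04 (SE 0.12). CEBPG encodes a short C/EBP protein that lacks a strong activation domain and pairs with ATF4 at CARE sites. Its values were 36.3 and 35.0 FPKM in NT1_hp2, against 18.8 and 18.9 FPKM in the control, a log2 difference of 0.89 (SE 0.061). Its pairwise ratios of 1.85 to 1.93 were the narrowest range among the 9 genes.

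CEBPD encodes a C/EBP factor of inflammatory and acute-phase responses, and it lay at the other end. It had 2.54 and 2.43 FPKM in NT1_hp2, against 5.36 and 4.46 FPKM in the control. Both NT1_hp2 libraries lay well below both controls, with pairwise ratios of 0.453 to 0.569 and a log2 difference of −0.76 (SE 0.11). The gene is short of reads, with 153 in NT1_hp2 and 290 in the control, which gives a ratio of 0.502 (95% exact binomial interval 0.410 to 0.613). That interval and the others of this kind cover counting error only.

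CEBPB and ATF5 differed by less than 1.5-fold in all pairings. CEBPB, a C/EBP factor that dimerises with ATF4 and CHOP, stood at 27.2 and 24.5 FPKM in NT1_hp2, against 19.0 and 21.8 FPKM in the control. Its log2 difference of 0.33 (SE 0.095) came with pairwise ratios of 1.12 to 1.43, and the values within each group spread by 1.11-fold and 1.14-fold. ATF5 is an ATF4-related factor under the same kind of translational control, linked to the mitochondrial stress response. It had 5.35 and 4.94 FPKM in NT1_hp2, against 4.49 and 3.75 FPKM in the control, a log2 difference of 0.27 (SE 0.10) on 430 reads in NT1_hp2 and 330 in the control.

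NUPR1 encodes a small stress-induced chromatin protein that is induced through ATF4. It was barely detected, at 0.537 and 0.782 FPKM in NT1_hp2, against 0.428 and 0.477 FPKM in the control. This left it below the filter of 1 FPKM in at least 2 libraries, so 8 of the 9 genes entered the fit. It rested on 106 reads in NT1_hp2 and 69 in the control, or 1.46 times the control share (95% exact binomial interval 1.07 to 2.01), while the NT1_hp2 libraries alone differed from each other by 1.46-fold.

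**Figure D1:**
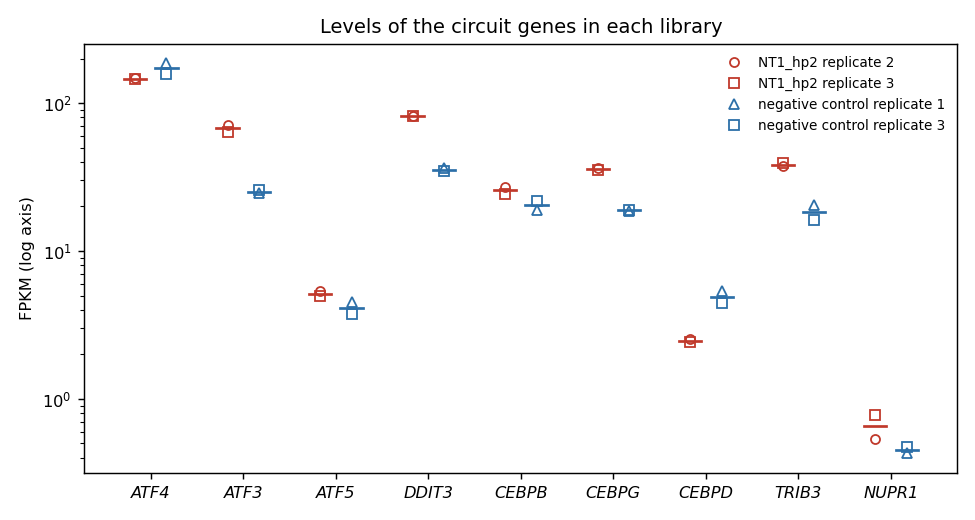
FPKM of each circuit gene on a log axis, with 1 symbol per library and a bar at the group mean (NT1_hp2 left, negative control right, n = 2 each). The groups lie apart most clearly for ATF3, DDIT3, CEBPG and TRIB3 (higher in NT1_hp2) and CEBPD (lower), while ATF4 is the highest of the genes at 144 to 185 FPKM.

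Over the whole table, limma-trend compared 16362 features, and 13.9% of them passed a Benjamini-Hochberg adjusted p of 0.05 (5.00% higher and 8.92% lower in NT1_hp2). Of the 8 circuit genes in the fit, ATF3, DDIT3, TRIB3 and CEBPG passed higher and CEBPD passed lower, and ATF4, CEBPB and ATF5 did not pass. Because the genes were chosen with this contrast known, nothing is read from that share. All 9 had groups that did not overlap, 7 higher and 2 lower, as did 66.8% of the tested features (32.0% higher and 34.8% lower). The median log2 difference of the 8 genes was 0.61, and that of all tested features was −0.0075. By size of increase ATF3 was the 105th, DDIT3 the 156th, TRIB3 the 215th and CEBPG the 312th of the tested features, and CEBPD was the 379th from the lowest. These ranks are on the log2(FPKM + 1) scale, which understates changes of low genes. The adjusted calls needed all 4 libraries, since 0 circuit genes passed without any 1 of them, while 3315 to 5836 features of the whole table had an unadjusted p under 0.05 in those fits and at most 1 passed adjustment.

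**Figure D2:**
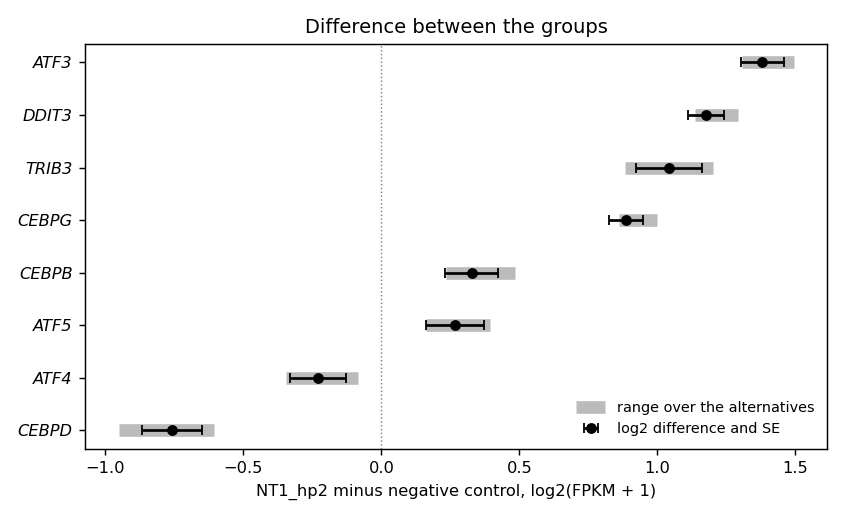
Difference between NT1_hp2 and the negative control for the 8 tested circuit genes on the log2(FPKM + 1) scale, with points and bars for the estimate and its standard error and grey bands for the range over the 14 alternative analyses. ATF3 is highest at 1.38 and CEBPD lowest at −0.76, and no band crosses 0.

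The order of the genes by level differed between the groups. In NT1_hp2 it ran ATF4, DDIT3, ATF3, TRIB3, CEBPG, CEBPB, ATF5, CEBPD and NUPR1, with no overlap between neighbours. In the control it ran ATF4, DDIT3, ATF3, CEBPB, CEBPG, TRIB3, CEBPD, ATF5 and NUPR1. There CEBPG could not be separated from TRIB3, nor CEBPD from ATF5, since their libraries overlapped. Set against ATF4 within the same library, DDIT3 had 0.553 and 0.567 of its FPKM in NT1_hp2 and 0.198 and 0.219 in the control. The ratio of TRIB3 to DDIT3 overlapped between the groups, at 0.462 and 0.480 in NT1_hp2 and 0.557 and 0.467 in the control.

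Among the 54 bZIP genes examined, ATF4 was placed 2nd by FPKM in both NT1_hp2 libraries, after JUND, and 1st in both control libraries. DDIT3 was 4th in both NT1_hp2 libraries, against 9th and 8th in the control, and ATF3 was 5th and 6th, against 11th and 10th. CEBPG was 8th in both NT1_hp2 libraries and 14th in both control libraries. CEBPB kept to the same region, 11th in both NT1_hp2 libraries and 13th and 12th in the control. ATF5 and CEBPD were far down in every library, at the 32nd to 42nd places.

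The makeup of C/EBP family mRNA was unlike in the groups. Summed over DDIT3 and the 5 CEBP genes A, B, D, E and G, the family reached 152 and 149 FPKM in NT1_hp2, against 87.6 and 85.4 FPKM in the control. DDIT3 took 53.4% and 55.0% of this sum in NT1_hp2, against 41.7% and 40.4% in the control. The shares of CEBPG were close together, at 23.9% and 23.5% in NT1_hp2 and 21.4% and 22.1% in the control. CEBPB took 17.9% and 16.5% in NT1_hp2, against 21.7% and 25.5% in the control, although its FPKM was not lower. CEBPD took 1.67% and 1.63% in NT1_hp2, against 6.11% and 5.22% in the control. CEBPA, a differentiation factor, took 3.13% and 3.33% in NT1_hp2, against 9.01% and 6.80% in the control. Its own level was 4.76 and 4.95 FPKM in NT1_hp2, against 7.89 and 5.81 FPKM in the control. That was a log2 difference of −0.41 that did not pass (limma-trend adjusted p = 0.109). CEBPE, a granulocyte factor, was listed at 0 in every library. These shares are of mRNA per length and say nothing of protein or of dimers.

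**Figure D3:**
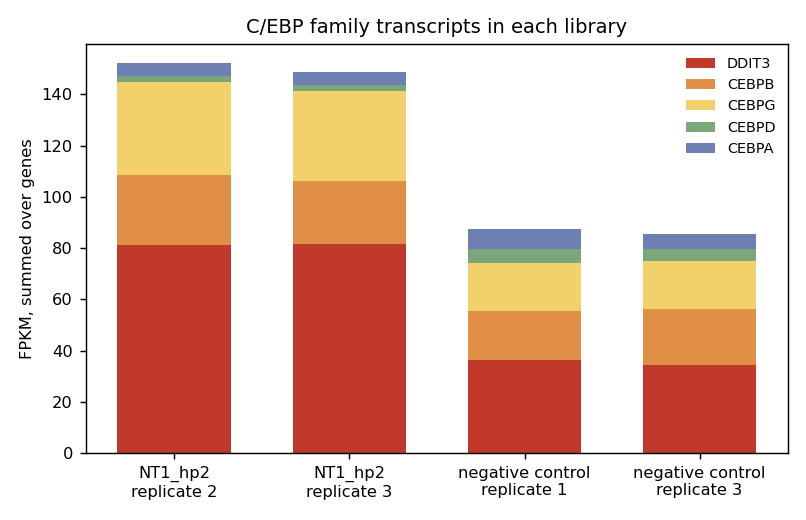
Stacked FPKM of C/EBP family genes in each library (NT1_hp2 left, negative control right). The total is 149 to 152 FPKM in NT1_hp2 and 85.4 to 87.6 FPKM in the control, and DDIT3 is the largest block in every library.

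Within the ATF family of 8 genes, ATF3 took 24.0% and 22.7% of the summed FPKM in NT1_hp2, against 8.53% and 10.1% in the control, and ATF4 took 49.7% and 51.2%, against 64.1% and 61.7%. TRIB3 was the leading Tribbles gene in all libraries, with 72.2% and 71.7% of the family's FPKM in NT1_hp2 and 57.6% and 52.1% in the control. Its paralogs TRIB1 and TRIB2 did not pass, with log2 differences of 0.11 (SE 0.080) and −0.055 (SE 0.068).

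Some circuit genes share exon bases with neighbours, and the library kit named in the labels does not mark strand. DDIT3 (ENSG00000175197, chromosome 12, 57516588 to 57521737) shares 355 bases, 27.2% of its exon length, with MARS on the other strand and 58 bases with MBD6. MARS, the methionyl-tRNA synthetase gene, averaged 21.2 ± 0.070 FPKM in NT1_hp2 and 16.3 ± 1.44 FPKM in the control (SD, n = 2 each). It passed with a log2 difference of 0.36 (limma-trend adjusted p = 0.0487), less than that of DDIT3, and the call was lost with median-of-ratios factors (adjusted p = 0.0522) and without robust shrinkage (0.0543). MBD6 stood at −0.30 without passing, although it passed with limma-voom (adjusted p = 0.0238) and among protein-coding genes alone (0.0185). ATF5 shares 626 bases, 21.2% of its exon length, with NUP62, a nuclear pore gene at 21.8 ± 0.151 FPKM in NT1_hp2 and 23.8 ± 0.401 FPKM in the control and so more abundant than ATF5. How reads in bases shared by NUP62 and ATF5 were counted is not stated in the labels. ATF5 also shares 75 bases with IL4I1, which had 36 reads in NT1_hp2 and 26 in the control. CEBPB shares 231 bases with CEBPB-AS1, which held 52 reads in NT1_hp2 and 47 in the control, against 1431 and 1071 of CEBPB. The annotated genes AC022506.1 and MIR4751 lie wholly inside exons of DDIT3 and ATF5 on the same strand, and both were listed at 0 reads in all libraries. Reads over those shared bases were thus not counted for AC022506.1 and MIR4751. Whether such reads were dropped or given to the other gene was not tested. If dropped, the FPKM of genes that share bases, DDIT3 and ATF5 among them, would be understated.

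Other genes of the pathway were taken from 7 lists by role, 143 genes in all, of which 130 were tested. Of these, 36 passed higher and 8 lower in NT1_hp2, against 5.00% and 8.92% of all tested features, and their median log2 difference was 0.14, against −0.0075 for all. The lists were written with earlier results of these data known, among them a higher level of amino acid genes, so they are not independent of them. The adjusted p-values that follow are from limma-trend over all tested features, and means are given with the SD over 2 libraries.

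Upstream of ATF4, 3 of 18 listed genes rose and 1 fell, with a median log2 difference of 0.11. The list holds genes for eIF2 kinases, eIF2, its exchange factor and its phosphatase. It also holds DELE1, GCN1, IMPACT and DNAJC3, which are none of these. Among all tested features, 5.00% passed higher and 8.92% lower. EIF2AK3, which encodes PERK, the kinase of endoplasmic reticulum stress, averaged 8.41 ± 0.142 FPKM in NT1_hp2 and 6.07 ± 0.323 FPKM in the control (adjusted p = 0.0379). DNAJC3, a co-chaperone that inhibits eIF2 kinases, averaged 11.9 ± 0.116 FPKM in NT1_hp2 and 8.44 ± 0.822 FPKM in the control (0.0405 adjusted p), and EIF2S2, the beta subunit of eIF2, averaged 83.3 ± 5.61 FPKM in NT1_hp2 and 63.7 ± 3.78 FPKM in the control (0.0495 adjusted p), a call lost with median-of-ratios factors (adjusted p = 0.0531) and without robust shrinkage (0.0521). DELE1, which relays mitochondrial stress to the kinase HRI, was the member that fell, at 9.61 ± 0.0963 FPKM in NT1_hp2 and 12.1 ± 0.174 FPKM in the control (adjusted p = 0.0441), a call lost with upper-quartile factors (0.0545) and library totals (0.0617). The kinase genes EIF2AK1 (HRI), EIF2AK2 (PKR) and EIF2AK4 (GCN2) had log2 differences of 0.052, 0.23 and 0.11 without passing.

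Of 40 tested bZIP genes outside the circuit, 6 rose and 5 fell, against 5.00% and 8.92% of all tested features, with a median of 0.11. CREB5, a CREB family factor, averaged 7.82 ± 0.258 FPKM in NT1_hp2 and 3.53 ± 0.106 FPKM in the control, a log2 difference of 0.96 (SE 0.076). XBP1, the factor activated by the sensor IRE1, had a log2 difference of 0.52 (SE 0.068). FOS and FOSB, growth factor-responsive partners of JUN, had log2 differences of −2.71 (SE 0.22) and −1.87 (SE 0.21). The adjusted p of each of these 4 was 0.0340. The adjustment ties many genes at that value, among them CREB5 and XBP1, whose unadjusted limma-trend p-values were 5.82e-05 and 0.000635. It therefore does not rank such genes. The bZIP genes thus did not move one way, and the 7 bZIP genes of the circuit did not either.

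Of 18 genes listed under ATF4 stability and feedback, 1 rose and 0 fell, against 5.00% and 8.92% of all tested features, with a median of 0.072. The list is a loose one and also holds targets of ATF4 such as CHAC1 and STC2. The member that rose was KLHL24, an adaptor of a ubiquitin ligase, at 12.2 ± 0.249 FPKM in NT1_hp2 and 8.76 ± 0.528 FPKM in the control (adjusted p = 0.0353). Whether KLHL24 acts on ATF4 was not tested. RPS6KA3, which encodes the kinase RSK2, FBXW11, which encodes a ubiquitin ligase subunit that recognises ATF4, and EGLN3, a prolyl hydroxylase, had log2 differences of 0.26, 0.22 and −0.24 without passing. RPS6KA3 and FBXW11 passed under other settings, among them library totals (adjusted p = 0.0343 and 0.0392) and limma-voom (0.000329 and 0.00261). Of 12 tested genes linked to CHOP or to death downstream of it, 2 rose and 0 fell, with a median of 0.059. Those were the oxidoreductase genes ERO1A and ERO1B, with log2 differences of 0.53 (SE 0.064) and 0.44 (SE 0.062) and an adjusted p of 0.0340 each. PMAIP1 and BBC3, which encode the death-promoting BH3 proteins NOXA and PUMA, had log2 differences of 0.38 and −0.42 without passing. PMAIP1 passed, higher, with upper-quartile factors, library totals, at least 1 FPKM in all 4 libraries, limma-voom, protein-coding genes alone and the length trend removed (limma adjusted p = 3.76e-06 to 0.0331). BBC3 passed, lower, with at least 1 FPKM in all 4 libraries, limma-voom and protein-coding genes alone (0.00299 to 0.0364). PPP1R15A, which encodes the eIF2 phosphatase subunit GADD34 and is a known target of CHOP, had overlapping groups and a log2 difference of 0.094 (SE 0.10).

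Of 21 tested genes for amino acid and folate enzymes and transporters, 10 rose and 0 fell, with a median of 0.29. The shares over all tested features, for this list and those that follow, were 5.00% higher and 8.92% lower. The mitochondrial folate enzyme ALDH1L2, the cystine transporter SLC7A11, MTHFD2, also a mitochondrial folate enzyme, and the serine enzyme PSAT1 had the smallest p-values, with log2 differences of 0.82, 1.03, 0.85 and 0.66. Of 20 cytosolic aminoacyl-tRNA synthetase genes, 11 rose and 2 fell, with a median of 0.35. IARS and GARS, for isoleucine and glycine, rose to 60.7 ± 1.79 and 32.5 ± 0.205 FPKM in NT1_hp2, against 34.7 ± 1.20 and 20.4 ± 0.815 FPKM in the control. WARS, for tryptophan, rose by a log2 difference of 0.53, and QARS, for glutamine, fell by 0.62 on the log2 scale. Of 6 tested genes in the list of secreted factors, 3 rose: the chemokine CXCL8, the stress cytokine GDF15 and INHBE, an inhibin subunit. Their log2 differences were 1.69, 0.65 and 1.13. That list also holds VLDLR, a membrane receptor and not a secreted factor, at −0.032. VEGFA, at 0.23, did not pass, although it did with limma-voom (adjusted p = 0.000632) and among protein-coding genes (0.0457). The median of the list, VLDLR included, was 0.44.

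**Figure D4:**
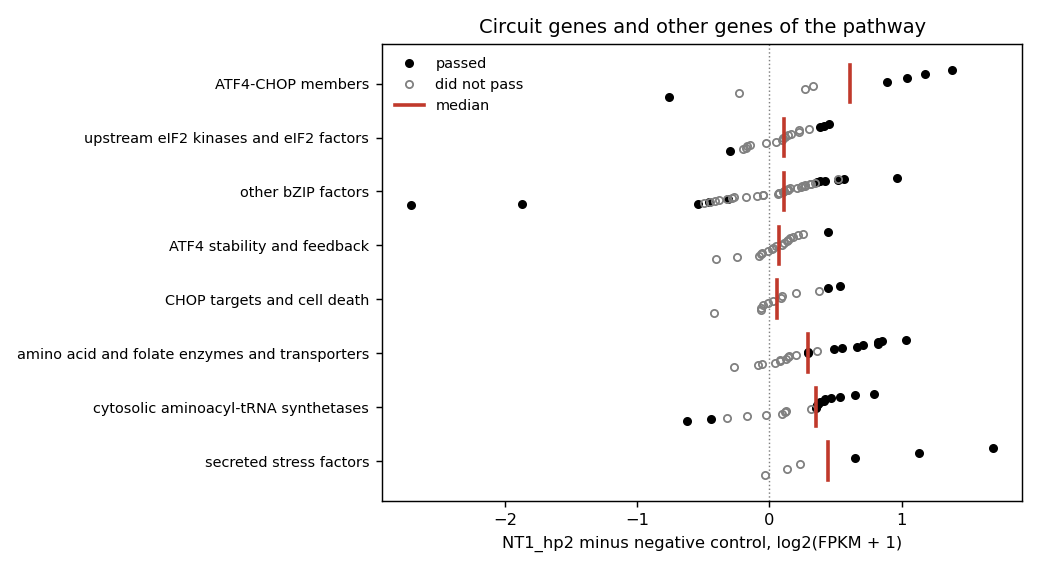
Log2 differences between NT1_hp2 and the negative control for the 8 tested circuit genes and for the tested genes of 7 lists, with filled points for adjusted p under 0.05, open points for the others and a red line at each median. The medians are 0.61 for the circuit, 0.29 for amino acid and folate genes and 0.35 for tRNA synthetases. They are 0.44 for the list of secreted factors, which includes the receptor VLDLR, and 0.059 to 0.11 for the upstream, bZIP, stability and CHOP target lists.

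The protein-coding genes with the profile most like that of DDIT3 over the 4 libraries were ANKRD1, SLC7A11, TAS2R20, C11orf96 and CREB5. Likeness was the Euclidean distance between log2(FPKM + 1) values centred on the mean of each gene, and it was 0.176 to 0.235 for these. The genes most like ATF4 were ENC1, IQANK1, RUFY1, MED20 and DOK4, at distances of 0.0123 to 0.0228. All 5 were far below ATF4 in level, between 2.05 and 8.72 FPKM, and with 4 libraries such closeness is a description.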

How the data were processed

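The authors deposited 1 table per library with a value per Ensembl gene, taken as FPKM, a unit read from the values because no header names it. The genome build was GRCh38.p12, per the submitters' processing notes, and no aligner or counter is named in the labels. Multiplied by summed GENCODE 29 exon length, 100% of values above 0 were whole multiples of 1 step per library within 0.01, which gave reads. The EGFP row, with no annotated length, stayed out of totals. Features reaching 1 FPKM in 2 or more libraries were compared as log2(FPKM + 1), which understates changes of low genes, by limma 3.58.1 (trend, robust) in R 4.3.3, with Benjamini-Hochberg adjustment over all. The fit was tested on simulated data that gave every gene and library the same spread beyond sampling noise. These libraries differ in spread, so that run says nothing of the calls made here. Read ratios have 95% exact binomial intervals from scipy 1.17.1.

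The circuit genes and the lists were chosen with earlier results of these data known. Named were all 9 circuit genes, up to 4 genes per list with the smallest p-value, genes sharing exon bases with a circuit gene, and the 5 protein-coding genes nearest to ATF4 and to DDIT3. Further members (the eIF2 kinases, PPP1R15A, TRIB1 and TRIB2, and the C/EBP and ATF relatives) were added after their values were seen. Some markers fixed in the design are not reported here. Promoters and motifs came from RefSeq windows. The 14 alternatives covered scaling, pseudocount, filters, shrinkage, limma-voom on recovered reads, protein-coding genes alone, a per-library length trend and omission of each library.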

Additional observations from a re-analysis of the deposited data

How the results depend on the processing

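Each of the 8 tested circuit genes kept its direction under all 14 alternatives (112 of 112 values), and NUPR1 had a value in the fit without the filter alone, 0.19. That agreement in direction was in large part fixed in advance. Changes of filter or shrinkage, and the limit to protein-coding genes, leave the log2 difference of a gene unchanged. Omitting a library cannot reverse a gene whose groups do not overlap, which held for all 8. The numbers of circuit genes that passed, 4 higher and 1 lower, were both 0 without the filter and both 0 without any 1 library. CEBPB and ATF5 also passed, higher, with limma-voom (adjusted p = 0.00181 and 0.0482) and with the length trend removed (0.0493 and 0.0464), and CEBPB passed among protein-coding genes alone (0.0127) and with at least 1 FPKM in all 4 libraries (0.0435). ATF4 did not pass under any alternative, and its log2 difference ran from −0.35 without negative control replicate 3 to −0.086 with the length trend removed. For the other pathway genes, 36 higher and 8 lower, the numbers were 62 and 16 with limma-voom, 17 lower among protein-coding genes, both 0 without the filter and both 0 without any 1 library.

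Over the whole table, 818 features passed higher and 1460 lower. The numbers higher were 1401 with upper-quartile factors, 1536 with library totals, 1374 with at least 1 FPKM in all libraries, 3343 with limma-voom, 1778 among protein-coding genes and 0 without the filter. The numbers lower were 1430 with upper-quartile factors, 1331 with library totals, 2273 with at least 1 FPKM in all libraries, 2444 with limma-voom, 2938 among protein-coding genes and 0 without the filter. Without any 1 library they were 0 higher and 0 to 1 lower, and 6778 features had an unadjusted p under 0.05 without the filter. Fits that leave a group with 1 library assume that it varies like the other group. The cause of these shifts was not tested. No paired analysis was possible because the groups share only 1 replicate number. Depth limits NUPR1, CEBPD and ATF5 most.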
